A study of Homo sapiens with 9 samples.

Results

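The expression of 10 apolipoprotein genes was followed in Huh-7 cells lacking 1 of 2 vault RNAs. Vault RNAs are short noncoding RNAs made by RNA polymerase III, and Huh-7 cells come from a human liver cancer. The genes were APOA1, APOA2, APOA4, APOA5, APOB, APOC1, APOC3, APOE, APOH and APOM. They were chosen by name from the 60664 genes of the count table and matched to it by Ensembl identifier, and all 10 were found. APOA5, APOA4, APOC3 and APOA1 formed a cluster on chromosome 11, APOE and APOC1 a pair on chromosome 19, and APOA2, APOB, APOH and APOM were taken as single genes. The lines were WT cells, vtRNA1-1 KO cells (1-1 KO) and vtRNA1-2 KO cells (1-2 KO), each with 3 libraries of mRNA extracted at 80% confluency from complete medium, without treatment. WT and 1-1 KO cells had been provided by another laboratory, whereas 1-2 KO cells were a single cell clone derived from the WT cells with CRISPR/Cas9, so each knockout was 1 line and the missing gene cannot be told apart from other differences between the lines. The study calls the 3 libraries of a line biological replicates, but the sources used here do not say that they came from separate cultures, so p-values measure only the spread between these libraries, which may be technical. In bulk libraries, fewer cells expressing a gene and less RNA per cell cannot be told apart.

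Total counts were 32384469 to 41782387 per library. VTRNA1-1 and VTRNA1-2, the targeted genes, had 0 counts in every library apart from 1 count of VTRNA1-1 in WT replicate 1, so the labels could not be checked with them in mRNA libraries. Between libraries of a line, chi-square per degree of freedom was 2.05 to 15.8, and the highest values, 14.8 and 15.8, belonged to 1-2 KO replicate 1, which stood apart from the other libraries of its line. In WT, the pairs with replicate 3, the library with the lowest total, had 9.90 and 6.10, against 4.87 for replicates 1 and 2. All 8 hepatocyte marker genes examined, including ALB (albumin) and AFP (alpha-fetoprotein), were detected in these cells of hepatocyte origin, and their summed level was 10665 to 11085 CPM (counts scaled to library size with edgeR's TMM factors) in WT, 26625 to 27418 in 1-1 KO and 16833 to 18369 in 1-2 KO.

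Apolipoproteins are the protein part of lipoprotein particles, which carry cholesterol and triglycerides in blood. The liver secretes most of them. APOB forms the backbone of very low and low density lipoproteins and stays on its particle, whereas the smaller apolipoproteins exchange between particles and act on the enzymes and receptors that process them. Several of their genes lie side by side in the genome, and liver transcription factors such as HNF4A are known to act on the chromosome 11 cluster.

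The chromosome 11 cluster spanned 48.3 kb. APOA5 (116789367 to 116792420, minus strand), APOA4 (116820700 to 116823304, minus), APOC3 (116829706 to 116833072, plus) and APOA1 (116835751 to 116837622, minus) followed each other along GRCh38, with gaps of 28.3, 6.40 and 2.68 kb. APOE (44905791 to 44909393, plus) and APOC1 (44914247 to 44919349, plus) lay 4.85 kb apart on chromosome 19. The single genes were APOB on chromosome 2 (21001429 to 21044073, minus), APOA2 on chromosome 1 (161222292 to 161223631, minus), APOH on chromosome 17 (66212033 to 66256525, minus) and APOM on chromosome 6 (31652416 to 31658210, plus).

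RefSeq entries of promoter regions (GRCh38.p14) were matched for 7 of the 10 genes, the exceptions being APOA1, APOB and APOC3. The windows of APOA4 and APOA5 are shown because these were the members with the largest fold changes. Each covers the 200 bases before the gene's start, 5′ to 3′ on the gene's strand, at chr11:116823305-116823504 (APOA4, minus) and chr11:116792421-116792620 (APOA5, minus), outside any annotated exon. Capitals mark matches to the motifs searched.
APOA4: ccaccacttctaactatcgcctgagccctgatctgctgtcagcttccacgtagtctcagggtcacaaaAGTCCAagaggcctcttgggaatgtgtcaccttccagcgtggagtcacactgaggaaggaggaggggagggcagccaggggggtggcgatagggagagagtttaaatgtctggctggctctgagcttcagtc
APOA5: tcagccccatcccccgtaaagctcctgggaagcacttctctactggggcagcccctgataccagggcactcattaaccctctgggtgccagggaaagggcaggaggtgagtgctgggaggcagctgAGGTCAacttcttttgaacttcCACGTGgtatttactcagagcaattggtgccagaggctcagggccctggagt
The TATA box was searched as TATAAA. The nuclear receptor core site was searched as AGGTCA. The core site of the HNF4 type was searched as AGTCCA. The forkhead site was searched as TGTTTAC. The GC box was searched as GGGCGG. The E box was searched as CACGTG. Both strands were read, and no 2 of these motifs hold each other. APOA4 held AGTCCA at position -132, counted from the gene's start, a motif found in 7.57% of 35116 RefSeq windows of the same length. APOA5 held AGGTCA at -74 (9.83% of windows) and CACGTG at -52 (5.49%). The letters of a motif are a description and not a measured binding site. The motifs were picked from general knowledge with these windows in view. GC content was 56.5% in APOA4 and 57.5% in APOA5, against a median of 59.0% over all windows.

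The apolipoprotein mRNAs covered a wide range of levels. Per length, in CPM per kb of merged exons, APOA2 was the highest in WT at 816 ± 16.5 (SD, n = 3), followed by APOB at 368 ± 18.7, APOA1 at 304 ± 4.79, APOE at 218 ± 13.6 and APOC1 at 176 ± 3.85. APOH (40.7 ± 0.39), APOC3 (21.8 ± 0.29) and APOM (20.4 ± 1.18) followed, and the libraries of APOC3 and APOM overlapped. APOA4 (0.43 ± 0.12) and APOA5 (0.077 ± 0.0025) stood far under the others. In 1-1 KO, APOA1 moved past APOB (543 ± 14.8 against 403 ± 8.74) and APOM past APOC3 (31.4 ± 0.40 against 20.2 ± 0.73), each without overlap of the libraries. In 1-2 KO, APOB (349 ± 19.7) overlapped APOA1 (337 ± 26.4), which overlapped APOE (299 ± 45.1), and APOC3 (33.0 ± 1.11) was above APOM (15.8 ± 1.75). Merged exon length counts every annotated exon, so genes with rarely used exons come out low on this scale. Summed over the 10 genes, the level per length was 1965 ± 36.7 CPM per kb in WT, 2557 ± 47.1 in 1-1 KO and 2300 ± 103.6 in 1-2 KO. The 10 genes took 0.692% to 0.747% of all counts in WT, 0.853% to 0.878% in 1-1 KO and 0.739% to 0.780% in 1-2 KO.

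**Figure D1:**
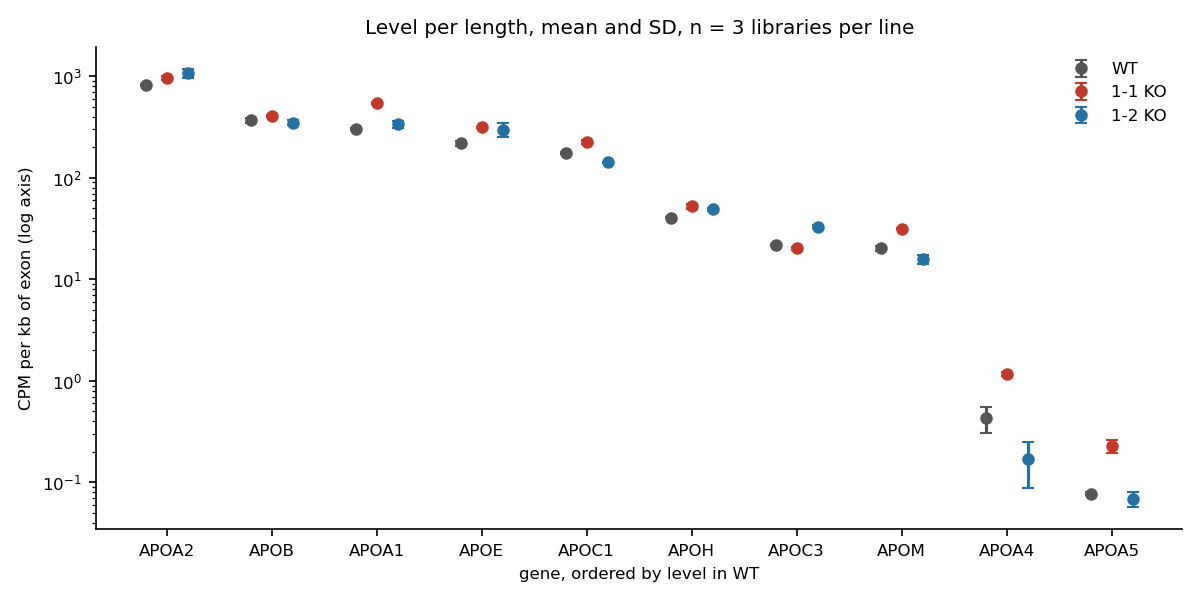
Level of each apolipoprotein gene in CPM per kb of merged exons (log axis), as mean and SD over the 3 libraries of each line, ordered by the level in WT. APOA2 is highest in every line, and APOA4 and APOA5 lie under all others.

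Compared to WT, 9 of the 10 apolipoprotein genes were higher in 1-1 KO cells and none was lower, and none was lower at an unadjusted p under 0.05 with edgeR or at an adjusted p under 0.05 with DESeq2 (0 of 10 each). Of all 17207 genes tested, 32.5% were higher and 30.9% lower in this comparison, and among the 2307 genes averaging 100 CPM or more 28.4% were higher and 49.8% lower. In 1-2 KO cells, 5 of the 10 were higher and 3 lower than in WT, against 28.2% and 26.2% of all genes and 22.9% and 44.7% of those averaging 100 CPM or more. Between the knockouts, 2 were higher in 1-2 KO and 6 lower, against 33.1% and 32.2% of all genes. The median log2 fold change of the 10 genes was 0.45 in 1-1 KO and 0.04 in 1-2 KO compared to WT, and -0.43 in 1-2 KO compared to 1-1 KO. Over all tested genes these medians were 0.01, 0.02 and 0.01. APOA5 passed the filter on low counts only through the 1-1 KO libraries, so its inclusion required a difference, and the counts and medians over the 10 genes are descriptions. Genes were called at an adjusted p under 0.05 with edgeR's quasi-likelihood test, which is the source of every adjusted p of a single gene. Fold changes over 1 on the log2 scale were rarer: 2 members in 1-1 KO were called beyond this size and higher (9.4% of all genes), 1 in 1-2 KO was called and lower (3.06%), and 2 were called and lower in 1-2 KO than in 1-1 KO (6.81%).

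**Figure D2:**
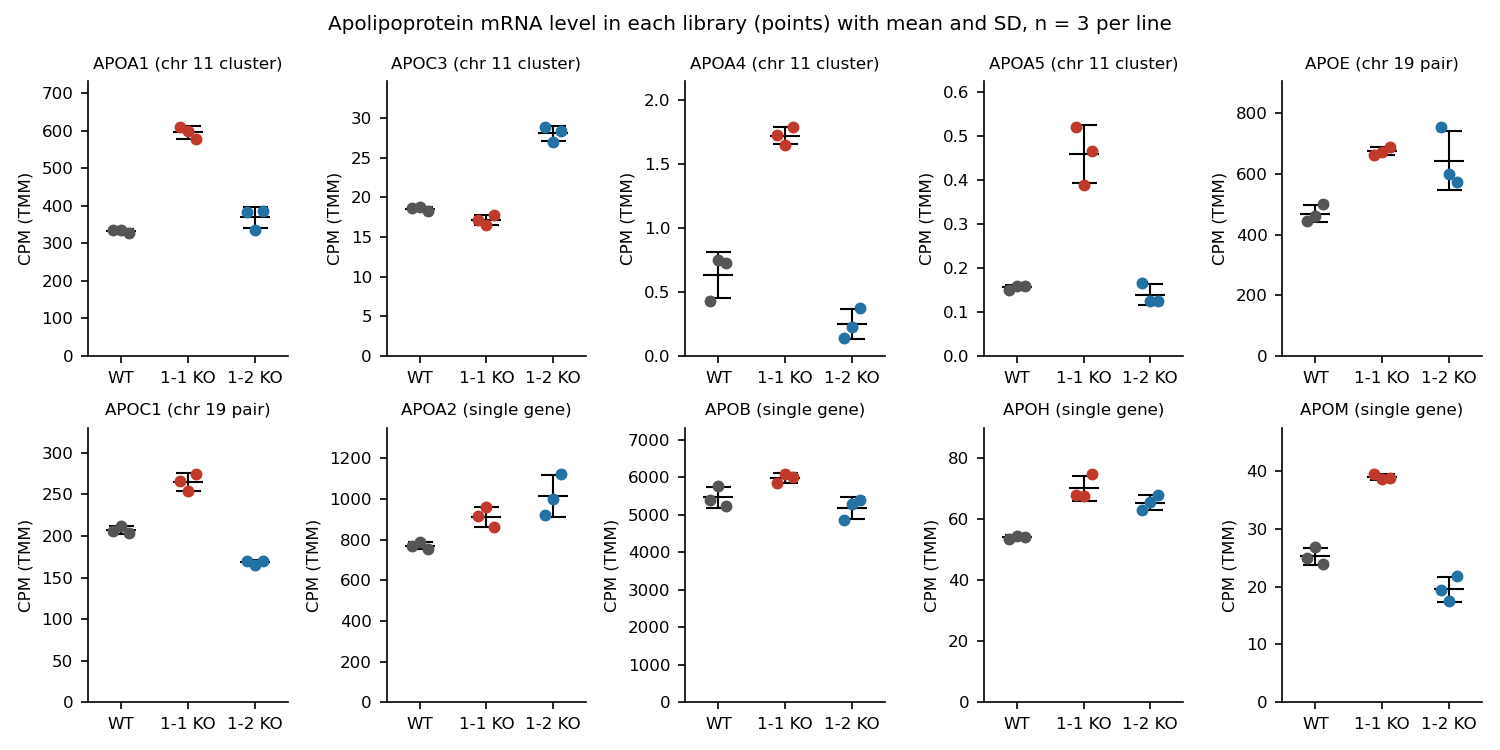
TMM-scaled CPM of each apolipoprotein gene in every library (points) with mean and SD for the 3 lines, n = 3 each, each panel with its own axis from 0. APOA1, APOA4, APOA5, APOB, APOC1 and APOM show 1-1 KO libraries above all others, and APOC3 shows 1-2 KO libraries above all others.

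APOB, the backbone protein of very low density lipoproteins, differed from WT by less than the other abundant members. It reached 5402, 5762 and 5217 CPM in WT, 5837, 6089 and 6015 in 1-1 KO and 4847, 5285 and 5402 in 1-2 KO. The 1-1 KO libraries lay above all WT libraries, while those of 1-2 KO overlapped WT. The log2 fold change was 0.13 (SE 0.047, adjusted p = 0.0249) in 1-1 KO and -0.08 (SE 0.047, adjusted p = 0.184) in 1-2 KO, and between the knockouts it was -0.21 (SE 0.047, adjusted p = 0.00136). The rise in 1-1 KO lost its call when WT replicate 1 (adjusted p = 0.0737), WT replicate 3 (0.0638), 1-1 KO replicate 2 (0.086) or 1-1 KO replicate 3 (0.0656) was left out. Without WT replicate 3, the fall in 1-2 KO passed the test at -0.13 (adjusted p = 0.0258).

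APOA1, the main protein of high density lipoprotein and activator of LCAT, rose in 1-1 KO. Its CPM was 337, 336 and 327 in WT, 609, 599 and 578 in 1-1 KO and 384, 336 and 387 in 1-2 KO. All 1-1 KO libraries stood above all others, and 1-2 KO overlapped WT. APOA1 was 1.79-fold higher in 1-1 KO than in WT (log2 0.84, SE 0.049, adjusted p = 3.19e-09) and 1.61-fold lower in 1-2 KO than in 1-1 KO (log2 -0.69, adjusted p = 1.74e-08). The difference of 0.15 (SE 0.049, adjusted p = 0.0203) between 1-2 KO and WT lost its call without WT replicate 3 (adjusted p = 0.107), without 1-2 KO replicate 3 (0.086) and in a fit of the WT and 1-2 KO libraries alone (0.0595).

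APOA2, another protein of high density lipoprotein, rose in both knockouts. It reached 770, 787 and 756 CPM in WT, 916, 961 and 864 in 1-1 KO and 921, 1001 and 1125 in 1-2 KO. Neither knockout overlapped WT, but the knockouts overlapped each other. The log2 fold change was 0.24 (SE 0.060, adjusted p = 0.00266) in 1-1 KO and 0.40 (SE 0.060, adjusted p = 6.29e-05) in 1-2 KO. The difference between the knockouts, 0.15 (SE 0.060, adjusted p = 0.037), lost its call without 1-1 KO replicate 1 (adjusted p = 0.0845), 1-1 KO replicate 3 (0.159), 1-2 KO replicate 2 (0.056) or 1-2 KO replicate 3 (0.205).

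APOM, which carries sphingosine 1-phosphate on high density lipoprotein, went in opposite directions in the knockouts. WT libraries had 24.98, 26.7 and 23.8 CPM, 1-1 KO libraries 39.5, 38.6 and 38.7, and 1-2 KO libraries 19.3, 17.5 and 21.8. No library of any line overlapped another line. APOM was 1.54-fold higher in 1-1 KO (log2 0.63, SE 0.069, adjusted p = 2.15e-06), 1.29-fold lower in 1-2 KO (log2 -0.37, SE 0.072, adjusted p = 0.000554) and 1.99-fold lower in 1-2 KO than in 1-1 KO (log2 -0.99, adjusted p = 1.61e-08). APOM overlaps BAG6 on the opposite strand, which had 9140 to 12834 counts, and no source used here states whether the counting used strand, so reads of BAG6 in the APOM count cannot be told apart.

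APOC3, an inhibitor of lipoprotein lipase, was the member that did not follow the others in 1-1 KO. Its CPM was 18.6, 18.8 and 18.3 in WT, 17.2, 16.6 and 17.8 in 1-1 KO and 28.8, 27.0 and 28.4 in 1-2 KO. The 1-1 KO libraries lay just under all WT libraries and the 1-2 KO libraries far above both. The log2 difference between 1-1 KO and WT was -0.11 (SE 0.054, adjusted p = 0.0843), and APOC3 was 1.51-fold higher in 1-2 KO than in WT (log2 0.60, SE 0.053, adjusted p = 3.11e-07). It was 1.63-fold higher in 1-2 KO than in 1-1 KO (log2 0.71, adjusted p = 2.85e-08), a call that held with each library of the knockouts left out.

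APOA4, made mainly in the intestine in humans and carried on chylomicrons and high density lipoprotein, and APOA5, a liver protein that raises lipoprotein lipase activity, had few reads. APOA4 had 17, 28 and 23 counts in WT, 73, 68 and 73 in 1-1 KO and 6, 9 and 15 in 1-2 KO. The libraries of the 3 lines did not overlap in counts. APOA5 had 6, 6 and 5 counts in WT, 22, 16 and 19 in 1-1 KO and 7, 5 and 5 in 1-2 KO, so that the 1-1 KO libraries were above all others while WT and 1-2 KO overlapped. APOA4 was 2.74-fold higher in 1-1 KO than in WT (log2 1.45, SE 0.23, adjusted p = 7.81e-05) and 2.53-fold lower in 1-2 KO than in WT (log2 -1.34, SE 0.33, adjusted p = 0.00326). The same gene was 6.92-fold lower in 1-2 KO than in 1-1 KO (log2 -2.79, SE 0.27, adjusted p = 4.98e-07). APOA5 was 2.90-fold higher in 1-1 KO (log2 1.53, SE 0.31), which is a description with no test because the gene entered the fit through those libraries alone, and its difference of -0.16 (SE 0.40, adjusted p = 0.796) between 1-2 KO and WT was not detectable at this depth. These fold changes rest on 5 to 73 reads per library, and neither gene was tested when 10 counts were required in each of the 9 libraries.

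APOE, the ligand by which remnant particles bind the LDL receptor, and APOC1, an inhibitor of cholesteryl ester transfer protein, are neighbours but parted in 1-2 KO. APOE had 446, 461 and 502 CPM in WT, 664, 673 and 689 in 1-1 KO and 755, 601 and 574 in 1-2 KO. APOC1 had 206, 212 and 203 CPM in WT, 266, 254 and 275 in 1-1 KO and 170, 166 and 169 in 1-2 KO. Every knockout library of APOE lay above every WT library, and APOC1 ordered the lines without overlap as 1-1 KO, WT, 1-2 KO. APOE was 1.44-fold higher in 1-1 KO (log2 0.52, SE 0.079, adjusted p = 4.61e-05) and 1.37-fold higher in 1-2 KO (log2 0.45, SE 0.079, adjusted p = 0.000215). APOC1 was 1.28-fold higher in 1-1 KO (log2 0.36, SE 0.037, adjusted p = 1.03e-06), 1.23-fold lower in 1-2 KO (log2 -0.30, SE 0.037, adjusted p = 9.38e-06) and 1.57-fold lower in 1-2 KO than in 1-1 KO (log2 -0.65, adjusted p = 1.53e-09). The APOE difference between the knockouts was -0.07 (SE 0.079, adjusted p = 0.459), but -0.20 (adjusted p = 0.000929) without 1-2 KO replicate 1, the library that stood apart, and 0.0080 (adjusted p = 0.937) without 1-2 KO replicate 3. Without 1-2 KO replicate 1, APOE in 1-2 KO compared to WT was 0.32 (adjusted p = 1.38e-05). A gene of no assigned type in the annotation overlapped both genes on the same strand and had 9 to 39 counts, and APOC1P1, a pseudogene of APOC1 that may share reads with it, had 7 to 16.

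APOH, also called beta-2 glycoprotein I, which binds anionic phospholipids, rose in both knockouts by similar amounts. It had 53.6, 54.6 and 54.3 CPM in WT, 68.0, 67.7 and 74.9 in 1-1 KO and 63.0, 65.5 and 68.0 in 1-2 KO. All 6 knockout libraries lay above all WT libraries, while the knockouts overlapped. The log2 fold change was 0.37 (SE 0.046, adjusted p = 5.93e-06) in 1-1 KO and 0.27 (SE 0.046, adjusted p = 0.000158) in 1-2 KO. The difference of -0.10 (SE 0.045) between the knockouts did not pass the test at an adjusted p of 0.0637, but did so without 1-1 KO replicate 2 (adjusted p = 0.0454) or without 1-2 KO replicate 3 (0.0444).

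**Figure D3:**
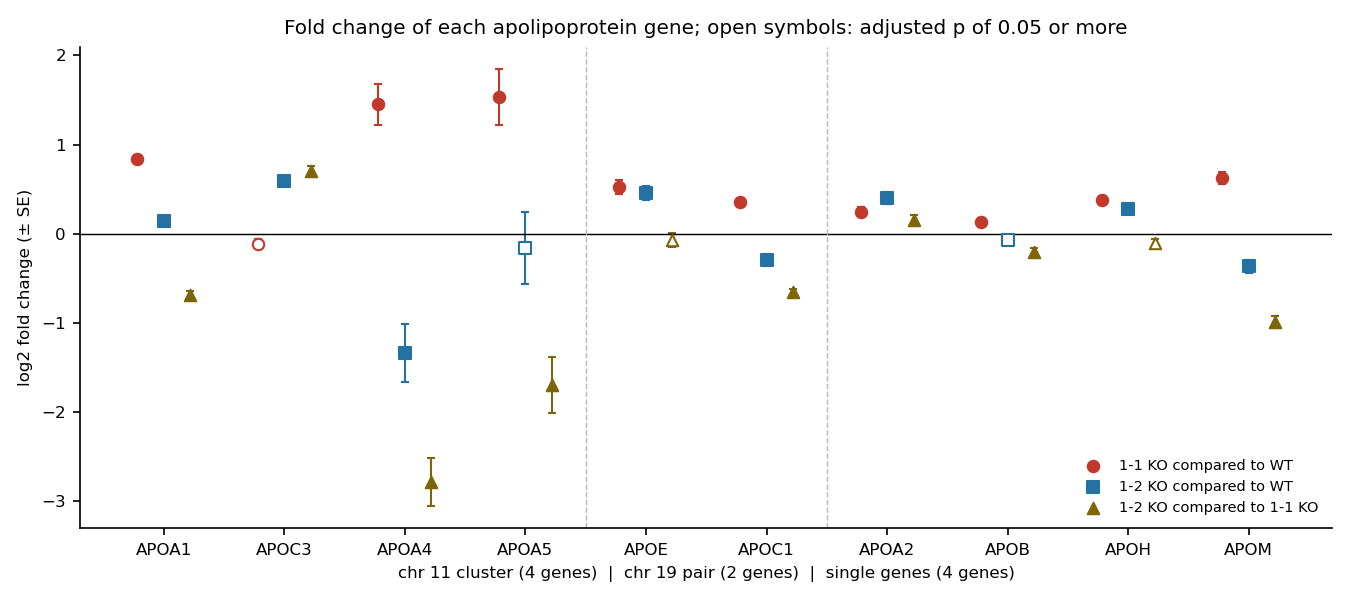
Log2 fold change and SE of each apolipoprotein gene in the 3 comparisons, grouped into the chromosome 11 cluster, the chromosome 19 pair and single genes, with open symbols for an adjusted p of 0.05 or more. APOA4 spans from 1.45 in 1-1 KO to -1.34 in 1-2 KO, and APOC3 is the member of its cluster that is higher in 1-2 KO than in 1-1 KO.

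APOA4, APOC1 and APOM were higher than WT in 1-1 KO and lower in 1-2 KO, as 11.7% of all genes were called in opposite directions. APOA1, APOA2, APOE and APOH were higher than WT in both, against 13.9% of all genes. Both comparisons use the same WT libraries. The libraries did not overlap for 10 of 10 members in 1-1 KO and WT, 7 of 10 in 1-2 KO and WT, and 7 of 10 in the knockouts, against 68.9%, 58.4% and 69.8% of all tested genes.

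Genes next to each other in the chromosome 11 cluster changed unequally. The ratio of APOA1 to APOC3 counts was 17.9 ± 0.10 in WT, 34.7 ± 1.97 in 1-1 KO and 13.1 ± 0.63 in 1-2 KO, although these genes lie 2.68 kb apart. Ratios within a library do not depend on scaling between libraries. The ratio of APOA4 to APOC3 was 0.034 ± 0.0098 in WT, 0.100 ± 0.00035 in 1-1 KO and 0.0088 ± 0.0041 in 1-2 KO. On the log2 scale, the range of the line means was 1.40 for APOA1 to APOC3 and 3.62 for APOA4 to APOC3, each with the smallest exact permutation p that 280 divisions of the libraries allow, 0.00357 (adjusted p = 0.00516 over 13 ratios). APOA4 to APOA5, both with few reads, had ratios of 4.03 ± 1.04, 3.80 ± 0.47 and 1.89 ± 1.07. On chromosome 19, the ratio of APOE to APOC1 was 2.27 ± 0.17 in WT, 2.55 ± 0.088 in 1-1 KO and 3.82 ± 0.55 in 1-2 KO, a range of 0.74 (exact permutation adjusted p = 0.00516).

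Ratios within the chromosome 11 cluster had a larger median spread between lines than ratios of single genes. Over the 6 pairs of the chromosome 11 cluster the range of the line means was 1.03 to 3.62 with a median of 1.81, and over the 6 pairs of single genes on different chromosomes it was 0.25 to 1.15 with a median of 0.63. The 3 ratios with APOA5 are descriptions, since this gene was in the fit only through the 1-1 KO libraries. Without them, the ranges on chromosome 11 were 1.40, 2.22 and 3.62. These 3 ratios, that on chromosome 19 and the 6 of single genes differed between lines (exact permutation, adjusted p of 0.00516 to 0.0155 over the 13 ratios). Ratios of other gene pairs were not computed, and libraries of 2 lines did not overlap for 58.4% to 69.8% of all tested genes. Of the single genes, APOA2 to APOH lost its call when any of 6 libraries was left out, namely each WT library, 1-1 KO replicate 3 and 1-2 KO replicates 2 and 3 (exact permutation adjusted p of up to 0.0964), and APOA2 to APOB lost it with a replicate block (0.0602). Pairs share genes, and ratios with APOA4 or APOA5 carry the larger counting error. The difference between clustered and single pairs was not tested.

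**Figure D4:**
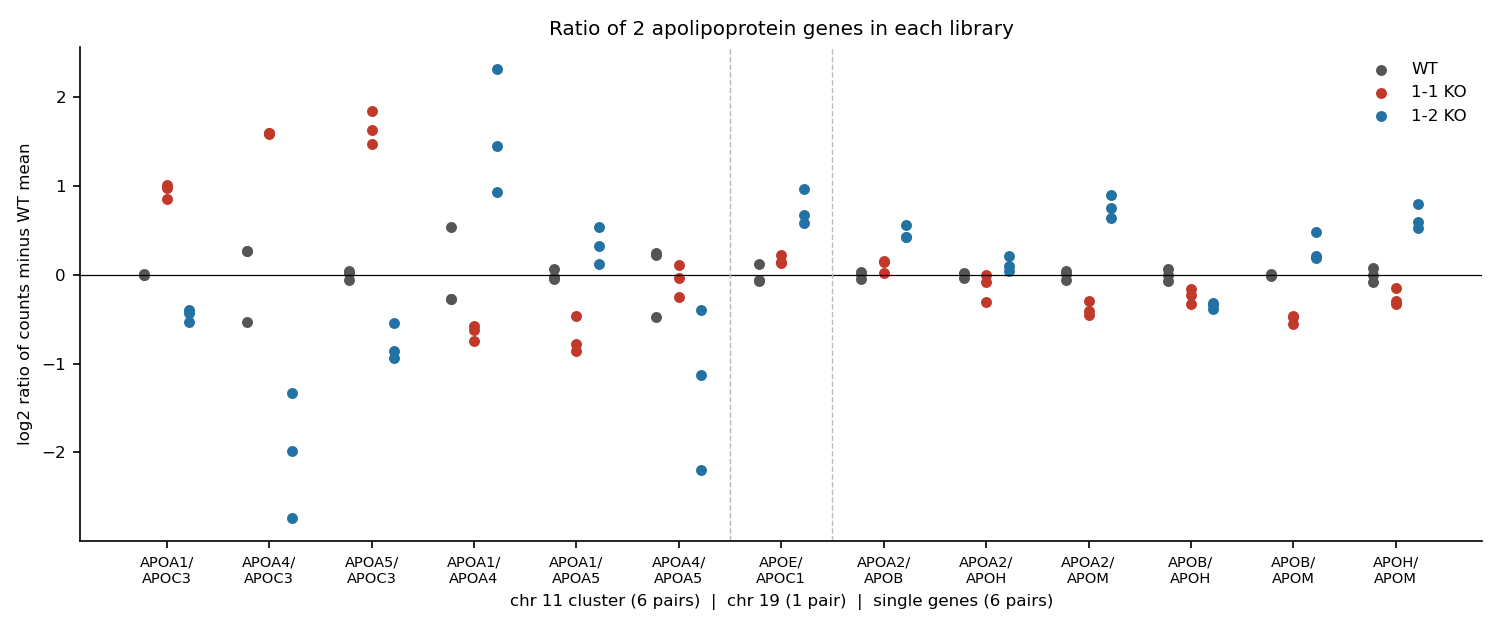
Log2 ratio of the counts of 2 apolipoprotein genes in each library minus the mean of WT, for 6 pairs on chromosome 11, 1 on chromosome 19 and 6 of single genes. Ratios to APOC3 move up in 1-1 KO and down in 1-2 KO, and the line means of the pairs of single genes span 0.25 to 1.15.

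The surroundings of the chromosome 11 cluster did not rise in 1-1 KO. Of the 13 other tested genes within 600 kb of the cluster's centre, none was higher in 1-1 KO (0 with edgeR also at an unadjusted p under 0.05, and 0 with DESeq2) and 10 were lower, against 32.5% and 30.9% of all tested genes, and the median was -0.25 on the log2 scale, next to -0.03 over the 943 tested genes of chromosome 11. BUD13, a splicing factor, was at -0.23 (adjusted p = 0.00242), ZPR1, a zinc finger protein, at -0.14 (0.0037) and SIK3, a salt-inducible kinase, at -0.18 (0.00306). These are the nearest genes on either side. Within the cluster, APOA1 and APOA4 were at 0.84 and 1.45, whereas APOC3 was at -0.11 and not called. APOA5, at 1.53, was in the fit only through the 1-1 KO libraries, so its value is a description. PAFAH1B2 (-0.15, adjusted p = 0.00427) and SIDT2 (-0.41, 0.00051) were also lower, and PCSK7 was at -0.13 (0.0624). TAGLN, which encodes the actin-binding protein transgelin, was at -5.25 in 1-1 KO (adjusted p = 5.09e-16) and 1.15 in 1-2 KO (1.67e-10). In 1-2 KO, 1 of the 13 genes was higher, TAGLN, and 2 were lower, against 28.2% and 26.2% of all genes, with a median of -0.04. The median of 50 neighbouring genes was -0.14 in 1-1 KO and -0.11 in 1-2 KO around APOA1 and APOC3.

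Genes around APOE and APOC1 were at the level of their whole chromosome in 1-1 KO. Of the 36 other tested genes within 600 kb, 20 were higher and 5 lower in 1-1 KO, against 32.5% and 30.9% of all genes, with a median of 0.33. The 1099 tested genes of chromosome 19 also had a median of 0.33, and of 0.14 in 1-2 KO. In 1-2 KO, 12 of the 36 were higher and 9 lower, against 28.2% and 26.2% of all genes, with a median of -0.02. APOC1P1, among the lower genes in both knockouts, passed the filter on low counts only through the WT libraries, so its calls are a description. Around APOE and APOC1 the 50 neighbouring genes had a median of 0.40 in 1-1 KO, next to 0.52 for APOE and 0.36 for APOC1. In 1-2 KO these neighbours had medians of 0.10 around APOE and 0.13 around APOC1, next to 0.45 and -0.30. Next to the pair, the cell adhesion genes BCAM (1.16, adjusted p = 2.49e-06) and NECTIN2 (0.15, 0.0049) were higher in 1-1 KO, whereas TOMM40, a mitochondrial import pore, was at 0.05 (0.295). CLPTM1 was at 0.32 in 1-1 KO (3.38e-05), CLASRP at -0.40 (3.31e-05), and RELB at -0.29 in 1-1 KO (0.00249) and 0.65 in 1-2 KO (1.53e-06). The part of regional shifts in the APOE and APOC1 differences was not tested.

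APOC2, the activator of lipoprotein lipase further along the same cluster, had 51 to 84 counts in WT, 83 to 95 in 1-1 KO and 25 to 37 in 1-2 KO. It was at 0.28 in 1-1 KO (adjusted p = 0.163) and 2.41-fold lower in 1-2 KO (log2 -1.27, SE 0.20, adjusted p = 8.2e-05). The readthrough gene APOC4-APOC2 shares its exons and was at 0.72 in 1-1 KO (adjusted p = 0.000171) and -0.67 in 1-2 KO (0.000884), so the split of reads between them is uncertain.

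Among single genes, APOM stood beside neighbours that were lower in 1-2 KO. The 50 genes around APOM had a median of -0.24 in 1-2 KO, next to -0.37 for APOM, and all tested genes of chromosome 6 had a median of -0.27. In 1-1 KO the neighbours were at -0.12 while APOM was at 0.63. For APOA2, the neighbours were at -0.20 in 1-1 KO and -0.01 in 1-2 KO against 0.24 and 0.40. APOB lay near its neighbours in 1-1 KO (0.13 against 0.10) and under them in 1-2 KO (-0.08 against 0.19). APOH was above its neighbours in both knockouts, at 0.37 against 0.08 and 0.27 against -0.04.

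**Figure D5:**
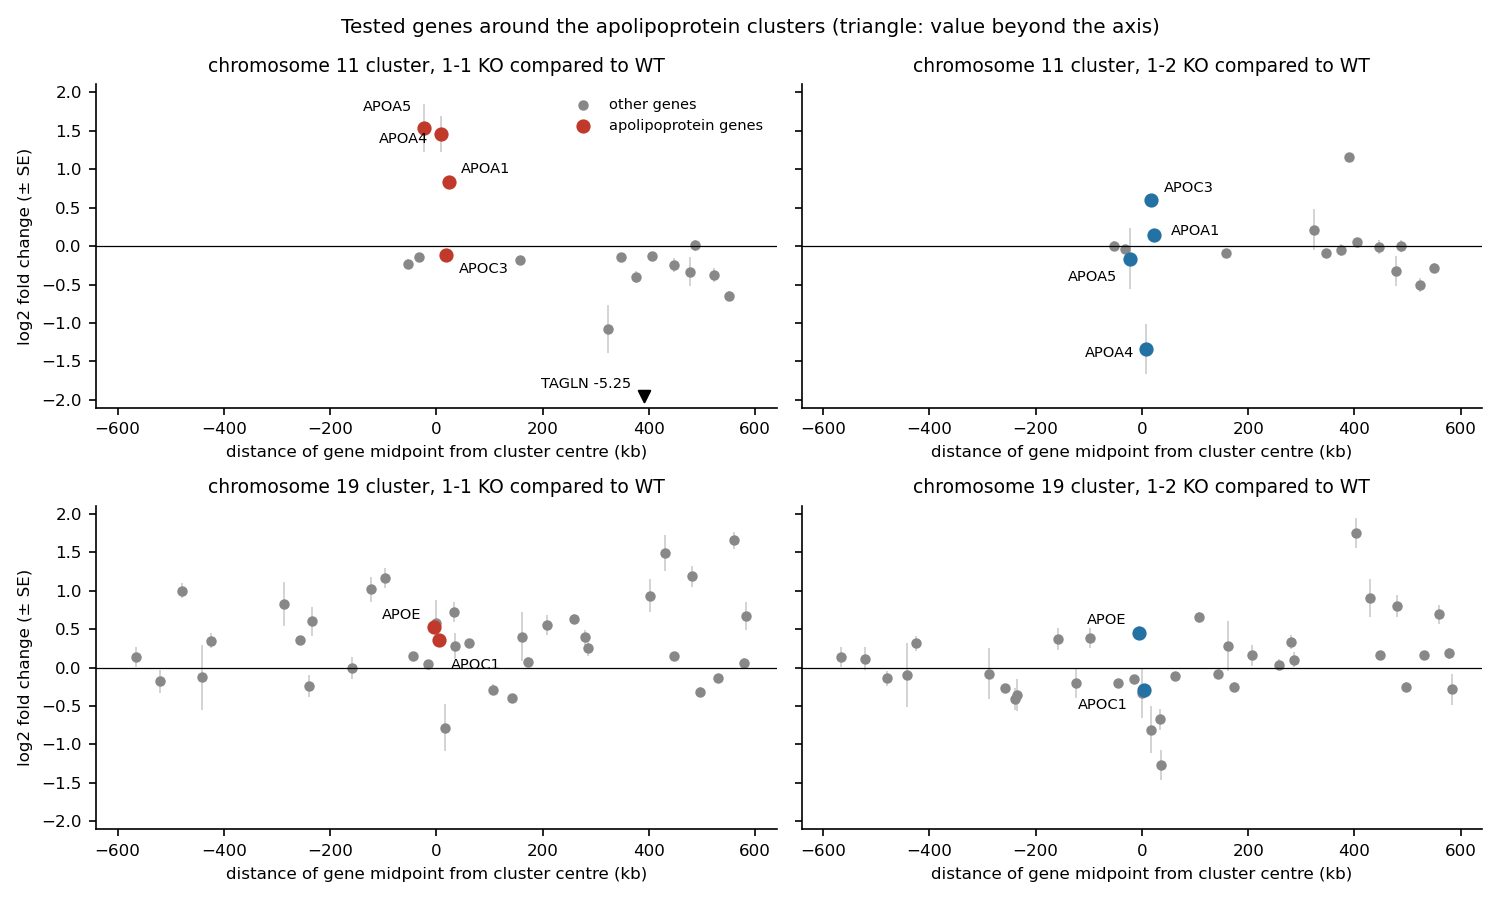
Log2 fold change and SE of tested genes within 600 kb of the centre of the chromosome 11 cluster and the chromosome 19 pair, compared to WT, with apolipoprotein genes coloured and all other genes grey. On chromosome 11 in 1-1 KO, APOA1, APOA4 and APOA5 stand above grey points that lie mostly under 0, and APOC3 lies among these points. APOA5 was in the fit only through the 1-1 KO libraries. On chromosome 19 in 1-1 KO, APOE and APOC1 lie among grey points that are mostly above 0.

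Other apolipoproteins and the genes that act with them were counted in the same way. The counts of each list stand against 32.5% higher and 30.9% lower of all genes in 1-1 KO, and 28.2% and 26.2% in 1-2 KO, and no list was tested as a whole. Of 7 further tested genes, 4 were higher and 0 lower in 1-1 KO (0 lower with edgeR also at an unadjusted p under 0.05, and 0 with DESeq2), and 2 were higher and 3 lower in 1-2 KO. APOD, among those higher in 1-1 KO, had 4 to 10 counts in WT and 13 to 21 in 1-1 KO. It passed the filter on low counts only through the 1-1 KO libraries, so its call is a description. CLU (clusterin, apolipoprotein J) was 1.27-fold higher in 1-1 KO (log2 0.34, adjusted p = 7.33e-07), and APOL2 was at 0.38 in 1-1 KO (adjusted p = 9.83e-06) and 0.36 in 1-2 KO (2.07e-05). SAA4, a constitutive serum amyloid A of high density lipoprotein, was 3.02-fold lower in 1-2 KO (log2 -1.59, adjusted p = 7.47e-08).

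Of 10 tested genes that assemble and secrete lipoproteins, 7 were higher and 0 lower in 1-1 KO (0 lower with edgeR also at an unadjusted p under 0.05, and 0 with DESeq2), with a median of 0.25, and 1 was higher and 3 were lower in 1-2 KO, with a median of -0.01. MTTP, which loads lipid onto APOB, was at 0.58 in 1-1 KO (SE 0.041, adjusted p = 2.37e-08), and its partner subunit P4HB was at 0.54 (SE 0.045, adjusted p = 1.16e-07). In 1-2 KO, MIA2, an export factor at exit sites of the endoplasmic reticulum, was at -0.73 (SE 0.042, adjusted p = 3.46e-09), and SORT1, a sorting receptor that binds APOB, at -0.51 (SE 0.036, adjusted p = 3.03e-08).

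Enzymes and transfer proteins that remodel plasma lipoproteins were split. Of 10 tested, 5 were higher and 4 lower in each knockout. CETP, the cholesteryl ester transfer protein, was among the lower genes in both, with 26 to 36 counts in WT and 1 to 4 in the knockouts. It passed the filter on low counts only through the WT libraries, so its calls are a description. LIPC, hepatic lipase, was 1.82-fold higher in 1-1 KO (log2 0.86, adjusted p = 1.65e-10) and 1.52-fold lower in 1-2 KO (log2 -0.60, adjusted p = 1.04e-08). LIPG, endothelial lipase, was 2.36-fold lower in 1-1 KO (adjusted p = 3.91e-09), and PLTP, the phospholipid transfer protein, 2.35-fold higher in 1-2 KO (adjusted p = 2.55e-08).

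Receptors and transporters also moved both ways. Of 13 lipoprotein receptors and their regulators, 5 were higher and 4 lower in 1-1 KO, and 5 were higher and 6 lower in 1-2 KO. LRP8, a receptor of APOE, was 2.09-fold lower in 1-1 KO (adjusted p = 7.87e-08), and SCARB1, the receptor of high density lipoprotein, 1.40-fold lower (adjusted p = 1.21e-07). LRP2 (megalin) was 5.39-fold higher in 1-2 KO (adjusted p = 4.49e-10), and LRPAP1, a chaperone of these receptors, 1.32-fold lower (adjusted p = 4.27e-05). Of 4 sterol and lipid efflux transporters, 2 were higher and 1 lower in 1-1 KO, and 1 was higher and 3 lower in 1-2 KO. ABCG8, which exports sterols into bile, was at 0.77 in 1-1 KO (adjusted p = 5.14e-05) and -1.37 in 1-2 KO (1.86e-06). ABCA1, which loads lipid onto APOA1, was at -0.27 in 1-1 KO (adjusted p = 0.000377). ABCG1 was at or under 3 counts in every WT library and at least 14.4-fold higher in 1-2 KO, computed against 3 counts per library. Since ABCG1 passed the filter on low counts only through knockout libraries, its calls as higher in both knockouts are a description.

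Of 25 transcription factors known to act on apolipoprotein genes, 11 were higher and 8 lower in 1-1 KO, and 12 were higher and 7 lower in 1-2 KO, with medians of 0.07 and 0.19. PPARGC1A, among those higher in 1-1 KO, had 2 to 6 counts in WT. It passed the filter on low counts only through knockout libraries, so its call is a description. FOXO1, a forkhead factor under insulin control, was 1.498-fold lower in 1-1 KO (adjusted p = 5.37e-08). NR1H4, the bile acid receptor FXR, was 1.48-fold lower in 1-1 KO (adjusted p = 6.28e-08) and 2.91-fold lower in 1-2 KO (adjusted p = 4.03e-12). NR5A2, also called LRH-1, was 1.47-fold higher in 1-2 KO (adjusted p = 1.79e-08).

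All 8 hepatocyte markers were higher in 1-1 KO, with a median of 0.56, as were 9 of the 10 apolipoproteins, against 32.5% of all genes. APOA5, among these 9, passed the filter on low counts only through the 1-1 KO libraries, so the count of apolipoproteins is a description. In 1-2 KO, 3 of the hepatocyte markers were higher and 4 lower, with a median of -0.10. AFP was at 2.22 and 2.08, ALB at 1.90 in 1-1 KO, and FGA, a fibrinogen chain, at -0.97 in 1-2 KO (adjusted p of at most 5.61e-11 for each). Of 5 tested intestinal epithelium markers, 3 were higher and 1 lower in both knockouts, while their sum, mostly VIL1, was 968 to 1032 CPM in WT, 590 to 599.97 in 1-1 KO and 852 to 920.0 in 1-2 KO. CDX2, an intestinal transcription factor, was at 3.28 in 1-1 KO (adjusted p = 1.02e-11) and 3.14 in 1-2 KO (1.93e-11), and CDH17, an intestinal cadherin, at 3.29 (4.14e-15) and 1.21 (1.46e-10). FABP2 had 0 or 1 counts and CDX1 0 to 2 in every library, whereas sucrase-isomaltase (SI), at 2 to 3 counts in WT, was at least 323-fold higher in 1-1 KO and at least 105-fold higher in 1-2 KO. SI passed the filter on low counts only through the knockout libraries, so its calls as higher are a description. FABP2 and CDX1 did not pass this filter. Biliary markers, of which 3 of 4 were higher and 1 lower in 1-1 KO and 1 higher and 2 lower in 1-2 KO, summed to 310 to 353 CPM in WT, 478 to 491 in 1-1 KO and 321 to 428 in 1-2 KO. KRT19, the biliary marker called higher in 1-2 KO, had 335 CPM in 1-2 KO replicate 1, the library that stood apart. It had 234 and 232 CPM in 1-2 KO replicates 2 and 3, next to 208, 198 and 233 in WT. KRT7, a biliary marker called lower in both knockouts, passed the filter on low counts only through the WT libraries, so its calls are a description. Mesenchymal markers, of which 1 of 4 was higher and 1 lower in 1-1 KO and 4 of 4 were higher in 1-2 KO, summed to 17.7 to 18.97 CPM in WT, 18.04 to 18.99 in 1-1 KO and 29.1 to 31.1 in 1-2 KO, with DCN at 0 to 5 counts. The part of these markers in the apolipoprotein differences was not tested.

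For the apolipoproteins other than APOM, the genes with the most similar pattern over the 9 libraries were listed by Euclidean distance of centred log2 CPM. Nearest to APOA1 was TK1, at 0.80 in 1-1 KO and 0.10 in 1-2 KO (distance 0.18). For APOC3 it was KLHL42 (distance 0.11), for APOC1 AGMO (0.095) and for APOE KLC1 (0.13). APOA2 was nearest to SNX29 (0.17), APOB to FASTKD2 (0.092) and APOH to DCAF5 (0.11). APOA5 and APOA4, with few reads, had no close match, the nearest being SNRPB2 (0.36) and OXCT1 (1.12). Genes averaging under 10 CPM, APOA4 and APOA5 among them, could not be listed, and none of the other 8 apolipoproteins was among the 3 nearest genes of another.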

How the data were processed

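Stranded mRNA libraries were made from WT cells and both knockouts, 3 for each line. STAR (alignment to hg38) and featureCounts (counting) were used by the authors, with versions not given in the sources used here. The deposited values are raw read counts per gene, with no normalization and no filter. Whether the counting used strand, and how reads matching several places were counted, is not stated.

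Positions came from GENCODE 44 (GRCh38). Of 60664 genes, 17207 passed filterByExpr (minimum count 10, minimum total 15). TMM normalization and edgeR 4.0.16 (R 4.3.3) quasi-likelihood tests compared the lines in 1 fit of all 9 libraries, and p-values were adjusted by Benjamini and Hochberg over the tested genes (threshold 0.05). CPM are TMM-scaled. Log2 ratios of 2 members' counts were compared with exact permutation tests, two-sided, over 13 pairs (Python 3.11.15). Neighbours are the 25 tested genes on each side, without the member. The alternatives were DESeq2 1.42.0, DESeq2 size factors, library size alone, other filters and thresholds, 2-group fits, a replicate block, a subtraction of the neighbours' median and leaving out each library. The steps were tested on simulated data.

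The members, lists and motifs were chosen with earlier results of these data known. Named were all 10 members, genes flanking the clusters, the 2 genes of each other list with the smallest adjusted p in each knockout, genes needed for a background role, and the 3 genes nearest to each member with a mean of at least 10 CPM, of which some are not reported here. No list was tested as a whole, and its counts and median are a description.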

Additional observations from a re-analysis of the deposited data

Results flagged for a closer look

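APOA4, APOC1 and APOM drew attention because the knockouts differed in direction. Each was called higher than WT in 1-1 KO and lower in 1-2 KO, against the same WT libraries. This choice fixed the direction of the difference between the knockouts, so the values of 1-2 KO compared to 1-1 KO are a description here. APOA4 was at -2.79 (log2, SE 0.27), on 6 to 73 counts per library, APOC1 at -0.65 (SE 0.037) and APOM at -0.99 (SE 0.070). Opposite calls were made for 11.7% of all tested genes.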

How the results depend on the processing

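Of the alternatives to the counts of members called, 77 left the count within 1.5 times of its value and 13 moved it. In 1-2 KO compared to 1-1 KO, the 2 members called higher became 1 with at least 10 counts in every library, with only the 2 groups compared, with a replicate block and at an adjusted p under 0.01, and ranged from 1 to 2 when each library was left out. The call lost was that of APOA2 (adjusted p = 0.0535 with the block). With a log2 fold change over 1 also required, members called higher were 2 in 1-1 KO, 0 in 1-2 KO and 0 between the knockouts, and those called lower were 1 in 1-2 KO and 2 between the knockouts. The ratio of APOA2 to APOB had a log2 range of 0.47 (exact permutation adjusted p = 0.0602) when only libraries of the same replicate number were exchanged (replicate block). Leaving out each library, the range was 0.16 to 0.31 for APOA2 to APOH, which lost its call without 1-1 KO replicate 3, without 1-2 KO replicate 2 or 3 and without each WT library. For APOA4 to APOA5 the range was 0.76 to 1.66, with 1.24 in all libraries, 1.48 without WT replicate 1 and 1.66 without 1-2 KO replicate 3. These values are a description, since APOA5 was in the fit only through the 1-1 KO libraries. Leaving out each library, APOE between the knockouts ranged from -0.20 to 0.0080, the latter without 1-2 KO replicate 3. After subtraction of the neighbours' median, APOC1 turned to -0.044 in 1-1 KO and APOA2 to -0.0075 between the knockouts. These changes of sign follow from the values subtracted, or from the library left out. Of 443 single fold changes recomputed, 400 kept their direction and side of the threshold. Libraries with the same number deviated with correlations of -0.19 to 0.05, and those with different numbers with -0.14 to 0.24. No pairing by number was seen, though 3 libraries per line cannot exclude it. The replicate block changed no other call of a member. Scaling by library size alone gave 6211 genes higher and 4713 lower in 1-1 KO and 5729 and 3803 in 1-2 KO, against 5600 and 5315 and 4844 and 4511, and shifted the median of all genes by under 0.1. Depth limits APOA4 and APOA5, at 5 to 73 counts.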
